A study of Rattus norvegicus with 8 samples.

Results

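The alcohol, aldehyde and retinoid dehydrogenases of the rat kidney cortex, together with carriers of vitamin A, are described here as a set of 10 genes out of the 14737 genes that could be named on the array. The set holds the alcohol dehydrogenases Adh1, Adh4, Adh6 and Adh7, the aldehyde dehydrogenases Aldh1a1 and Aldh2, the short-chain dehydrogenases Dhrs7l1 and Dhrs7, and the retinol carrier Rbp4 with the receptor-like gene Stra6l. Probes were assigned to a gene through the RefSeq accession given with each probe, and Adh1 is listed as Adh1c in the current reference. A probe was found for 9 of the 10 genes, 10 probes in all, and Dhrs7 matched none. The genes were chosen by the log2 signals of these 8 arrays and their differences between males and females, so those differences are given as a description without a test.

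The study asked which genes of the rat kidney are expressed sex-dependently. Cortical kidney tissue of 4 male and 4 female adult rats of the strain RCCHanTMWIST (Han Wistar) was used, untreated and conventionally housed, with 1 slice of 1 rat on each 1-colour array. The age in weeks and the stage of the female cycle were not given in the sources used here. All 8 arrays lay on 1 slide, the 75th percentile of the signal was between 5025 and 6547, and 73.8% to 79.1% of the probes of an array were well above background. The 7 markers of proximal tubule segments 1 and 2, which make up much of the cortex, were well above background on at least 4 arrays each, as were the 5 markers of segment 3. Of 5 adrenal markers, Cyp11b1 and Star were above background on no array, Cyp11b2 on 2 female arrays, and Cyp21a1 and Cyp11a1 on all 8. Only Cyp21a1 and Cyp11a1 were tested, and neither met the adjusted p. The summed signal of the 5 markers, most of it from Cyp21a1, was 0.105 to 0.182 in females and 0.0869 to 0.119 in males. These are multiples of the 75th percentile of the array, and the part of the adrenal gland in the values below was not tested.

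Alcohol dehydrogenases are cytosolic enzymes that oxidise alcohols, retinol among them, to aldehydes with NAD as the acceptor. Aldehyde dehydrogenases carry the product on to an acid, and in the case of retinal this acid is retinoic acid, the ligand of the nuclear retinoic acid receptors. In the kidney, retinol bound to its plasma carrier passes the glomerular filter and is taken back by the proximal tubule through megalin and cubilin. The genes of the alcohol dehydrogenases lie side by side in 1 cluster, which on chromosome 2 of the rat runs from Adh7 over Adh1, Adh6a, the pseudogene Adh1-ps1, Adh6 and Adh4 to Adh5 in the reference annotation, with non-coding RNA genes between them.

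The promoters of Adh6, of its cluster neighbour Adh4 and of Dhrs7l1 are shown because these genes span the differences described below from one end to the other, and because the first pair is alike in sequence. The 250 bases before the start of each gene are from RefSeq on the build GRCr8. Capitals mark matches to AGGTCA (a core of nuclear receptor sites), TGTTCT (a part of the androgen response element), TTCNNNGAA (the core of STAT5 and BCL6 sites) and TATAAA, each searched on both strands.
Adh6 (chr2:229576386-229576635, plus strand): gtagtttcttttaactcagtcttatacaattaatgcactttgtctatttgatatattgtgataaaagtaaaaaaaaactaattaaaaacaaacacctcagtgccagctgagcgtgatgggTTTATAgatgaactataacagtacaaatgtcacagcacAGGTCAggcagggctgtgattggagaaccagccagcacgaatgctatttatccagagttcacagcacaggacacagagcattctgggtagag
Adh4 (chr2:229621842-229622091, plus strand): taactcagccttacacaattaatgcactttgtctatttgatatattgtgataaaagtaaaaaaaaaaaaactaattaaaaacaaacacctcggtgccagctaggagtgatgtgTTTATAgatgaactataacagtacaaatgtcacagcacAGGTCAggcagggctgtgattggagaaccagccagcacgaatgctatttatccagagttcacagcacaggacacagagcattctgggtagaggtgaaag
Dhrs7l1 (chr6:97047900-97048149, minus strand): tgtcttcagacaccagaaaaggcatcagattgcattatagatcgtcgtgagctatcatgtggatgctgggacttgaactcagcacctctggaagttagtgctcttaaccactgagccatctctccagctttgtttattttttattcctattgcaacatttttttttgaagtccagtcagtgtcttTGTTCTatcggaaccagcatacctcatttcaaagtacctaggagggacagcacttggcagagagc
The Adh6 and Adh4 windows were identical at 232 of 261 aligned columns (88.9%), where columns with a gap count as not identical. The other 54 pairs among the 11 windows of the set and its cluster neighbours shared 36.2% to 51.7% (median 44.2%). Both windows held AGGTCA, at −92 in Adh6 and at −99 in Adh4, and TATAAA on the reverse strand, at −130 and −137. The window of Dhrs7l1 held TGTTCT at −65. Of 33469 rat promoters of the same length, 14.1% held AGGTCA, 17.5% TGTTCT, 12.9% TATAAA and 7.67% TTCNNNGAA. In the 11 windows, TATAAA was found in Rbp4 at −50 and in Dhrs7 at −242 as well, while TTCNNNGAA was found in none of them.

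Of the 8 genes of the set whose brightest probe could be tested, 3 met an adjusted p below 0.05 together with at least a 2-fold difference, which 1.89% of the 23425 tested probes did. Of these, 2 genes, Adh6 and Stra6l, were higher in females (1.09% of all tested probes), and 1, Dhrs7l1, was higher in males (0.798%). With Aldh1a1, 4 genes met the adjusted p alone, as 8.06% of all tested probes did, 2 of them higher in males (3.39%) and 2 in females (4.67%). The values of the sexes did not overlap for these 4 genes, which held for 18.5% of all tested probes. Nothing is read from these counts, since the genes were chosen with this contrast known. In slices of whole cortex, fewer cells of a type and less RNA per cell cannot be told apart, which applies to every value below. All values of single rats are log2 signals relative to the 75th percentile of their own array, and log2 fold-changes are male minus female.

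Adh6, an alcohol dehydrogenase of the middle of the cluster, had 1.14, 1.67, −0.01 and −0.65 in females 1 to 4. In males 1 to 4 it had −5.66, −6.15, −6.94 and −4.55. Every female lay above every male, with a gap of 3.89 on the log2 scale between the nearest rats. The females averaged 0.54 ± 1.06 (SD, n = 4) and the males −5.83 ± 1.00 (SD, n = 4). The log2 fold-change was −6.36 (standard error, SE, 0.621), which is 82.3-fold. All 8 arrays were well above background. With normexp background correction, which adds an offset to dim signals, the difference was 47.9-fold.

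**Figure D1:**
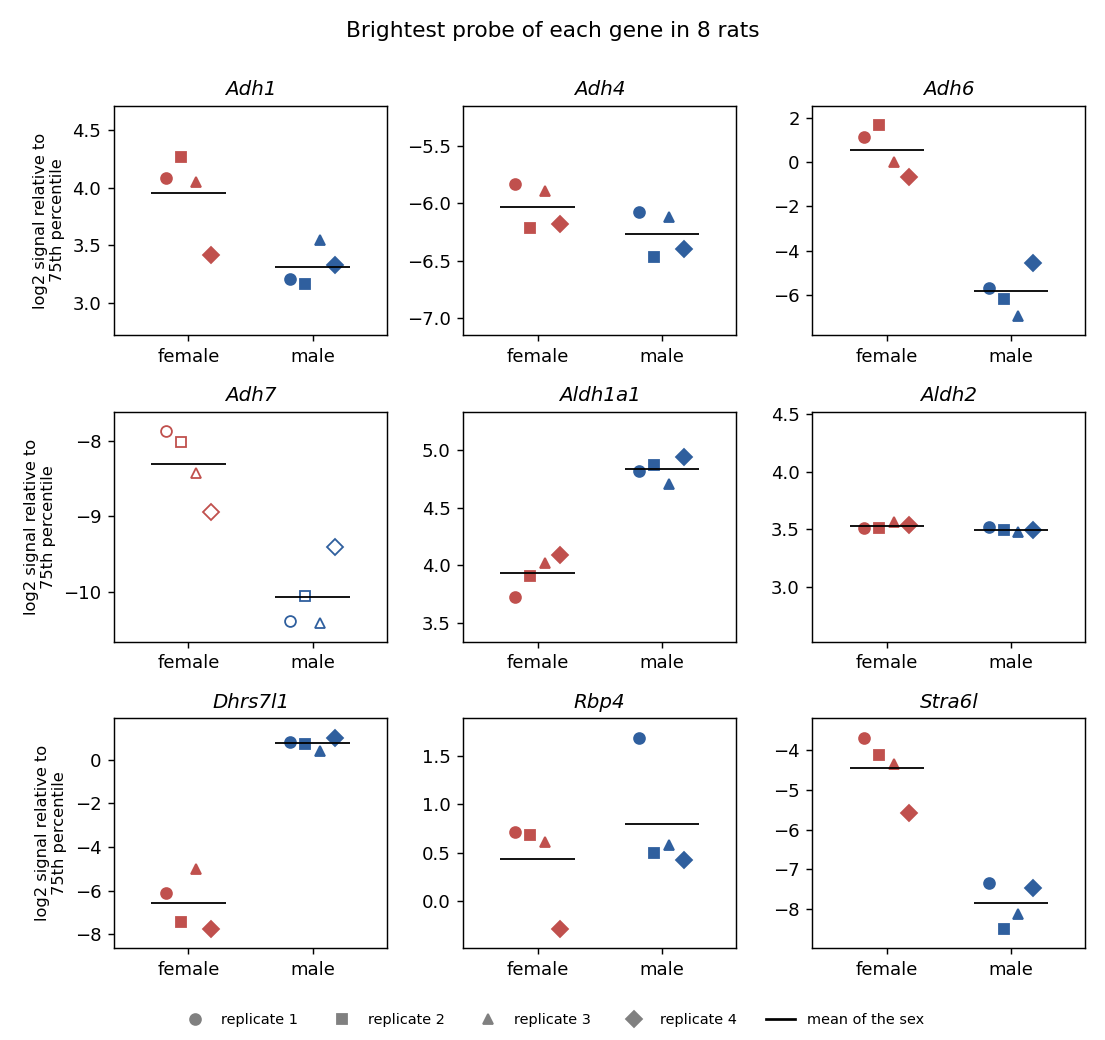
Log2 signal relative to the 75th percentile of the array for the brightest probe of 9 genes in 4 female (red) and 4 male (blue) rats, with the symbol giving the replicate, the line the mean of the sex, and open symbols a sex in which no array was well above background for the probe. Axes differ between panels. Females and males are separate for Adh6, Aldh1a1, Dhrs7l1 and Stra6l, and overlap for Adh1, Adh4, Aldh2 and Rbp4, while Adh7 was above background on no array.

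Adh1, the classical alcohol dehydrogenase of liver and kidney, had 4.08, 4.27, 4.05 and 3.42 in the females and 3.20, 3.16, 3.55 and 3.33 in the males. Females 1 to 3 lay above all males, and female 4 lay among them. The log2 fold-change was −0.64 (SE 0.182), and −0.82 without female 4, from a probe with 1 spot. Adh4, another alcohol dehydrogenase with activity on retinol, had −5.83, −6.22, −5.89 and −6.18 in the females and −6.07, −6.47, −6.12 and −6.40 in the males. The sexes overlapped, with a log2 fold-change of −0.24 (SE 0.130). This probe was dim in both sexes, near the level of Adh6 in males. It rested on 1 spot, and all 8 arrays were well above background. A second, dimmer probe of Adh4 lay between −8.79 and −8.05 in females and between −9.22 and −8.63 in males and exceeded background on no array. Thus 2 neighbouring genes whose promoter windows were 88.9% identical had log2 fold-changes of −6.36 and −0.24, the latter from a dim probe. The sequences of the probes were not used here, so cross-hybridisation between these related genes was not examined.

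Adh7, the alcohol dehydrogenase of stomach and other epithelia, did not reach the level well above background on any array. Its values were −7.87, −8.01, −8.43 and −8.94 in females and −10.38, −10.05, −10.40 and −9.40 in males. Every female lay above every male, but both sexes were at background, and no fold is given.

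The other genes of the cluster were measured too. Adh6a, an alcohol dehydrogenase gene next to Adh1, was lower in males, which averaged −5.08 ± 0.19 (SD, n = 4), than in females, with −3.92 ± 0.31 (SD, n = 4). The log2 fold-change was −1.17 (SE 0.164, limma adjusted p = 0.0055). With normexp background correction its difference came to −0.83 at the smallest, below 2-fold, and its adjusted p stayed below 0.05 in all 20 alternatives. Adh5, the formaldehyde-oxidising enzyme at the end of the cluster, had a log2 fold-change of −0.14 (SE 0.064, limma adjusted p = 0.225). For the pseudogene Adh1-ps1, 1 probe was named through the study's own list of sex-dependent genes and looked at after its values were seen. That list held only genes already called, so a sex difference at this probe was fixed in advance. The probe, with 1 spot, had −5.73, −6.17, −6.05 and −7.39 in females and −10.48, −9.97, −10.27 and −9.39 in males. The 4 female arrays were well above background and the male arrays were not, so its signal was at least 4.12-fold higher in females, counted against the lowest signal well above background on each male array. This bound holds for the deposited signals, since normexp background correction gave a log2 fold-change of −0.99. Along the cluster, the fitted difference in the deposited signals was therefore under 2-fold for Adh1, Adh4 and Adh5 and just over 2-fold for Adh6a. It was far above that for Adh6, and at least 4.12-fold for Adh1-ps1, which lies between Adh6a and Adh6. The value of Adh1-ps1 is no independent point in this order, since its probe came from genes already called sex-dependent.

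**Figure D2:**
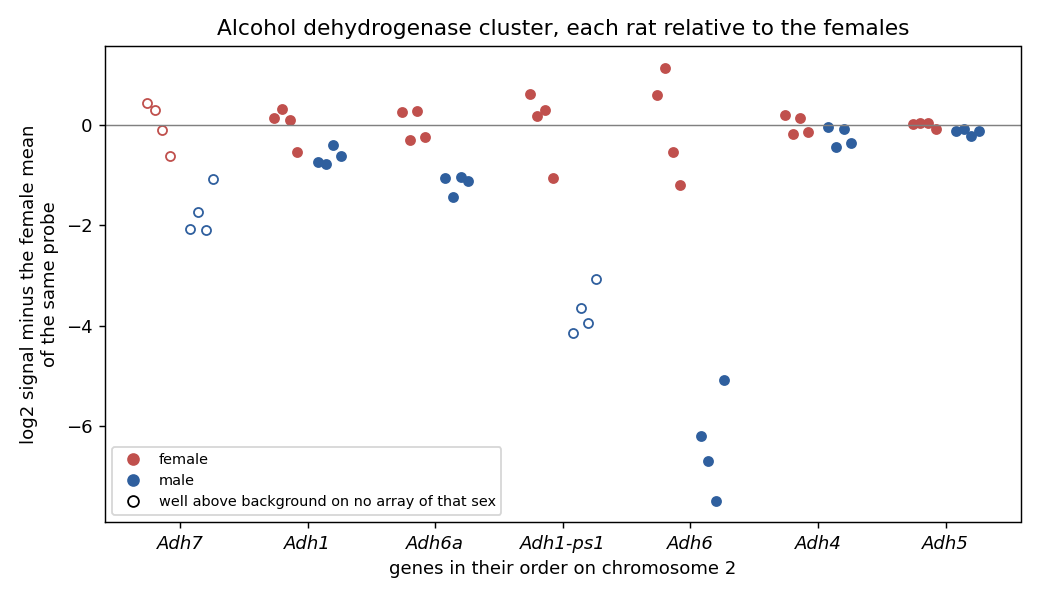
Log2 signal of each rat minus the female mean of the same probe (vertical axis) for 7 genes in their order on chromosome 2, in females (red) and males (blue), with open circles for a sex in which no array was well above background for the probe. The males of Adh6 lie farthest from the female mean, with a log2 fold-change of −6.36, and those of Adh4 and Adh5 lie nearest to it, with −0.24 and −0.14.

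Dhrs7l1, a short-chain dehydrogenase gene next to Dhrs7 on chromosome 6, ran the other way. The females had −6.12, −7.41, −5.03 and −7.75, and the males had 0.83, 0.73, 0.41 and 1.01. Every male lay above every female, with a gap of 5.43 on the log2 scale. The females averaged −6.58 ± 1.25 (SD, n = 4) and the males 0.74 ± 0.25 (SD, n = 4), so that the log2 fold-change was 7.32 (SE 0.545). The spread was wider among the females than among the males. The size moved with the background correction, and was 160.0-fold in the deposited signals and 66.3-fold with normexp background correction. The probe was well above background on all 8 arrays. A further probe, with 1 spot, came from the study's list of sex-dependent genes, which names it LOC690226, similar to Dhrs7. It was looked at after its values were seen, and being on that list fixed a sex difference in advance. It had −4.41, −4.94, −4.96 and −4.61 in females and 0.73, 0.69, 0.32 and 0.95 in males, a log2 fold-change of 5.40 (SE 0.169). The 4 males stood in the same order on both probes, with male 4 highest and male 3 lowest, and the females did not. Whether both probes detect 1 transcript was not tested. For Dhrs7 itself no value is given, as no probe carried its accession.

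Aldh1a1, which oxidises retinal to retinoic acid, had 3.72, 3.90, 4.02 and 4.09 in females and 4.82, 4.87, 4.71 and 4.95 in males. Every male lay above every female. The females averaged 3.93 ± 0.16 (SD, n = 4) and the males 4.84 ± 0.10 (SD, n = 4). At 0.91 (SE 0.097), or 1.87-fold, the log2 fold-change lay below the 2-fold threshold. It was 0.97 with quantile normalization and 0.98 in the authors' log2 table. The study itself listed Aldh1a1 among its sex-dependent genes, with a log2 fold-change just above the same 2-fold threshold. Aldh2, the mitochondrial enzyme that clears acetaldehyde, had 3.51, 3.51, 3.56 and 3.54 in females and 3.52, 3.49, 3.48 and 3.49 in males. The sexes overlapped, with a log2 fold-change of −0.04 (SE 0.056). Its SD was 0.024 among females and 0.019 among males, the smallest in the set.

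Rbp4, the plasma carrier of retinol, had 0.71, 0.69, 0.61 and −0.28 in females and 1.68, 0.50, 0.58 and 0.42 in males. The sexes overlapped, and 1 rat of each sex stood apart, female 4 below the other females and male 1 above the other males. The log2 fold-change was 0.36 (SE 0.329). Between 0.07 and 0.49 was obtained when single rats were left out, and 0.12 without female 4. Rbp4 is also a gene of fat tissue, for which 5 of 7 markers had a probe and none met the adjusted p. Their summed signal was 0.381 to 1.05 in females and 0.361 to 0.528 in males, as multiples of the 75th percentile of the array, and their part in the Rbp4 values was not tested.

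Stra6l, a relative of the retinol receptor gene Stra6, had −3.68, −4.12, −4.35 and −5.59 in females and −7.34, −8.50, −8.12 and −7.47 in males. Every female lay above every male, with a gap of 1.75. The females averaged −4.44 ± 0.82 (SD, n = 4) and the males −7.86 ± 0.55 (SD, n = 4), and the log2 fold-change was −3.42 (SE 0.421), which is 10.71-fold. Its signal was dim, rested on 1 spot, and was well above background on 4 female and 3 male arrays. With normexp background correction the log2 fold-change was −1.91, or 3.76-fold.

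Rats of one sex differed from each other in this set. Female 4 was the lowest female for 5 of the 8 tested genes, namely Adh1, Adh6, Dhrs7l1, Rbp4 and Stra6l, and the highest for Aldh1a1. How often it was the lowest female over all tested probes was not counted, so nothing is read from this number. Its Dhrs7l1 value of −7.75 was dim, near the lowest signal well above background on that array (−8.43). Among males, male 3 was lowest for 4 genes and male 1 highest for 4. Without female 4 the log2 fold-change was −6.76 for Adh6, −3.81 for Stra6l, 6.93 for Dhrs7l1 and 0.96 for Aldh1a1. After the mean of the sex was subtracted, the 28 pairs of genes had Pearson correlations of −0.62 to 0.75 over the 8 rats (median 0.33). The highest was that of Adh6 and Stra6l, with a Spearman correlation of 0.74, and a Pearson correlation of 0.83 without the 2 rats farthest from the median. These correlations are a description over 8 rats that share a slide. The 5 markers of proximal tubule segment 3 had their lowest female sum in female 4, with 25.7 against up to 57.5 in the other females and 19.8 to 25.9 in males. The sum adds unlogged signals and so follows mostly Slc7a13, the brightest marker, with 4.20 in female 4 and 4.76 to 5.38 in the other females. Female 4 was the lowest female for Slc5a10, Slc6a18 and Slc5a1 as well, but the highest for Cyp7b1 (−1.66). Female 4 also had the lowest female sum for segments 1 and 2, the thick ascending limb and the adrenal gland. For segments 1 and 2 it was 124 against up to 135. Of the segment 3 markers, Slc5a10 met both thresholds (log2 fold-change −1.49, limma adjusted p = 0.012). The rest did not meet the adjusted p, with Slc7a13 at −0.90, Slc5a1 at −0.42, Cyp7b1 at −0.11 and Slc6a18 at 0.27. The part of these cell types in the values of the set was not tested.

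**Figure D3:**
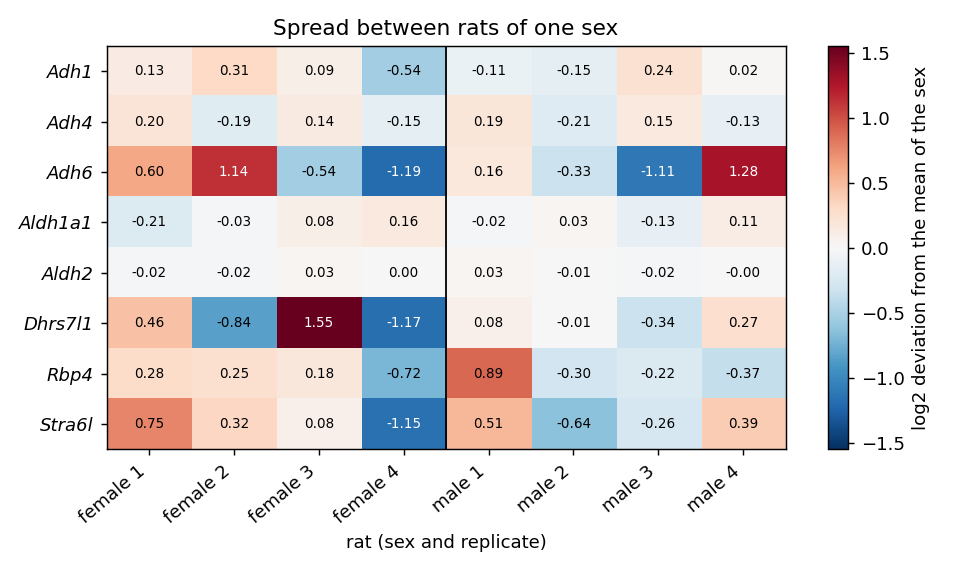
Log2 deviation of each rat from the mean of its own sex (colour and printed value) for the 8 tested genes (vertical axis) in 4 female and 4 male rats (horizontal axis). Female 4 has −1.19 for Adh6, −1.17 for Dhrs7l1 and −1.15 for Stra6l, whereas the deviations for Aldh2 are the smallest shown.

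The genes whose pattern over the 8 rats was most like that of Dhrs7l1, among 11132 other named genes above background on all arrays, included Cyp2c11 (Pearson correlation 0.990) and Enpep (0.989). Cyp2c11, a male-dominant cytochrome P450 of liver, had a log2 fold-change of 5.86. Enpep, an aminopeptidase of the tubular brush border, had 0.50. For Adh6 they were Sema3c (0.996), Serpina10 (0.993) and Klhl14 (0.991), with log2 fold-changes of −0.47, −5.12 and −1.33. Since the sex difference itself takes part in these correlations, genes with small differences rank beside genes with large ones.

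The other genes of alcohol, aldehyde and retinoid metabolism were taken from 7 lists with 71 genes, of which 57 had a probe and 50 could be tested. Of these 50, 5 met both thresholds (10%, against 1.89% of all tested probes), 2 higher in males and 3 higher in females. The adjusted p alone was met by 10 genes (20%, against 8.06%), 4 higher in males and 6 higher in females. The median log2 fold-change of the 50 genes was −0.08, and that of all tested probes was −0.04. The lists were also chosen with earlier results of these data known, so the shares describe them only.

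Among 3 other alcohol dehydrogenases, 1 was higher in females, which was Adh6a. Of 12 other aldehyde dehydrogenases tested, none met both thresholds, and the median log2 fold-change was −0.09. Aldh3a1, an aldehyde dehydrogenase of stomach and cornea, met the adjusted p with −0.68 (SE 0.156, limma adjusted p = 0.0368). This call was lost, with an adjusted p between 0.0545 and 0.0874, when any one of females 1, 2 and 3 or males 2, 3 and 4 was left out. The other 11 lay between −0.50 and 0.39. Aldh1a2, another retinal dehydrogenase of many tissues, was the lowest of these, with −0.50 (adjusted p = 0.194).

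Of 10 tested oxidoreductases acting on retinol and retinal, 1 was sex-dependent. Rdh16, a microsomal retinol dehydrogenase, had −2.06, −2.71, −2.42 and −2.22 in females and −1.11, 0.18, −1.38 and 0.23 in males. The males were all higher and split into a higher and a lower pair. The log2 fold-change was 1.83 (SE 0.381, limma adjusted p = 0.0254), and a second, dimmer probe was 2.83-fold higher in males (adjusted p = 0.016). The first probe missed the threshold without female 2 (adjusted p = 0.0722), female 3 (0.0642), male 2 (0.0628) or male 4 (0.0540), and with the slide column as a block (0.0681). The other 9 genes lay between −1.19 and 0.15, and none of 4 tested reductases with other Dhrs names met the adjusted p.

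Carriers and uptake proteins of retinoids held both of the remaining female-dominant genes. Ttr, transthyretin, which binds the retinol carrier in plasma, had −0.86, −2.21, −1.74 and −2.96 in females and −6.18, −8.20, −7.95 and −7.56 in males. All females lay above all males, and the log2 fold-change was −5.53 (SE 0.537, limma adjusted p = 0.0013), with 4 female and 2 male arrays well above background. With normexp background correction it was −3.93, so that the difference was 15.2-fold in place of 46.3-fold. Ttr is made in liver too, and of the 6 liver markers Apoa1 was above background on no array, while Fgb was higher in females (log2 fold-change −1.35) and F2 higher in males (1.70). Alb, Apob and Ahsg were above background on 7, 8 and 6 arrays. Their log2 fold-changes were 0.53, 1.81 and −0.05, and none of them met the adjusted p. The summed signal of the liver markers was 0.955 to 1.41 in females and 1.97 to 3.00 in males, and their part in the Ttr values was not tested. Stra6, the cell surface receptor for the retinol carrier, had 0.31, 0.35, 0.51 and 0.58 in females and −0.77, −1.005, −0.63 and −0.56 in males. Again the sexes were separate, with a log2 fold-change of −1.18 (SE 0.114, limma adjusted p = 0.0012). Thus Rbp4 overlapped between the sexes, whereas its plasma partner Ttr and its receptor Stra6 were lower in males.

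Smaller differences were found for proteins that hold or take up retinoids inside the kidney. Cubn, cubilin of the brush border, was lower in males with −0.59 (limma adjusted p = 0.0045). Lrp2, megalin, which takes up the retinol carrier from the filtrate, had a log2 fold-change of −0.01 (SE 0.111, adjusted p = 0.974). Crabp1, a cellular retinoic acid-binding protein, had −0.51 (limma adjusted p = 0.0288). This call was lost with quantile normalization (adjusted p = 0.0596), and when any one of females 1, 2 and 3 or males 1 and 2 was left out (0.0613 to 0.0791).

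**Figure D4:**
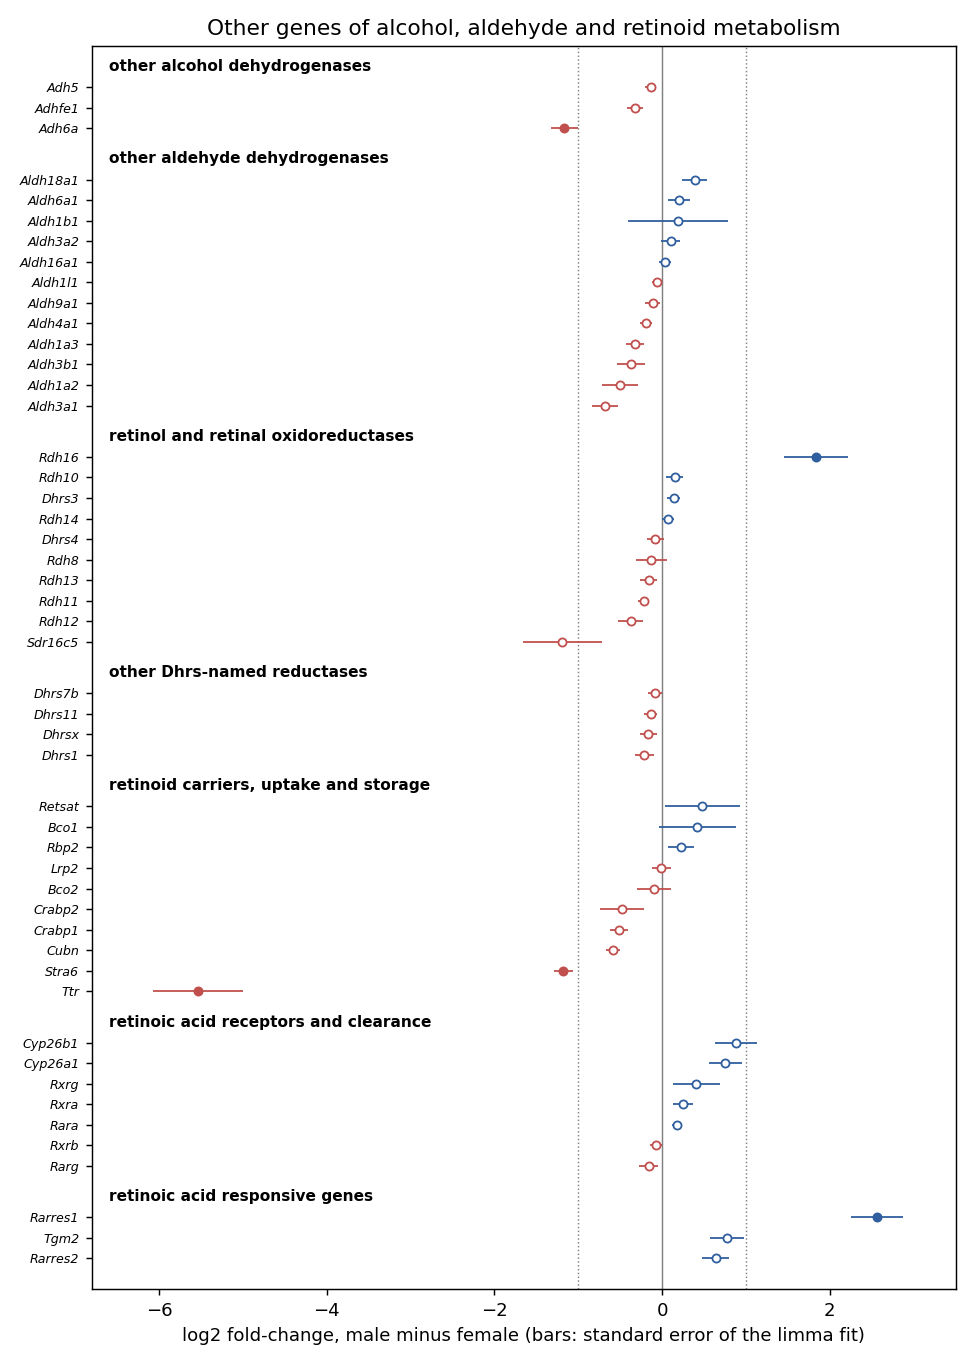
Log2 fold-change (male minus female, horizontal axis) with the standard error of the limma fit for 49 of the 50 tested genes of the 7 lists, each gene shown once, in blue where higher and in red where lower in males. Filled points met both thresholds, and dotted lines mark a 2-fold difference. Ttr at −5.53 and Rarres1 at 2.56 lie at the ends, and most other genes lie within the dotted lines.

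None of the 7 tested receptors and clearance enzymes of retinoic acid met the adjusted p. Cyp26a1 and Cyp26b1, which degrade retinoic acid, had log2 fold-changes of 0.76 (SE 0.197, adjusted p = 0.0540) and 0.89 (SE 0.249, adjusted p = 0.0673). Cyp26b1 met both thresholds without male 3, and also with weights for arrays and all rats kept. Of 9 tested genes known to respond to retinoic acid, 3 were higher in males by the adjusted p, as were 3.39% of all tested probes. In males 1 was lower, against 4.67% of all tested probes, and the median log2 fold-change of the 9 was 0.64. Nothing is read from these counts, since the lists were chosen with earlier results known. Rarres1, a retinoic acid receptor responder, had −1.38, −2.51, −2.08 and −2.93 in females and 0.71, 0.28, 0.14 and 0.22 in males. All males lay above all females, with a log2 fold-change of 2.56 (SE 0.307, limma adjusted p = 0.0028). Rarres2, which encodes chemerin, had 0.64 (adjusted p = 0.0470), and this was lost when any one of females 1 to 3 or males 1 to 3 was left out (0.0602 to 0.110). Tgm2, a transglutaminase, had 0.78 and missed the threshold (adjusted p = 0.0558). So did Dhrs3 with 0.14 (limma adjusted p = 0.294) and Crabp2, which went the other way with −0.48 (limma adjusted p = 0.295). Stra6, which is on this list too, was the gene lower in males by the adjusted p.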

How the data were processed

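Total RNA of kidney cortex from 4 rats of each sex was hybridised to 8 1-colour arrays, and groups and replicate numbers were taken from the sample titles. The authors deposited the signal intensity of every spot, background-subtracted by Feature Extraction 10.7.3.1 and, per the file headers, without scaling across arrays. A table of log2 values deposited by the authors had equal distributions on all arrays, as quantile normalization gives. The submitters' processing notes name limma 3.8.2.

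Here, outlier spots were dropped and each log2 signal was set against the 75th percentile of all non-control spots on its array. Spots of 1 probe were averaged, without a pseudocount. Fitted were the 23425 probes (of 30367) that reached a signal well above background on 4 or more of 8 arrays, as male minus female without covariates (limma 3.58.1, lmFit and eBayes, R 4.3.3), with Benjamini-Hochberg adjustment over all of them. A call needed an adjusted p below 0.05 and, where stated, at least a 2-fold difference. The fit was tested on simulated data. The 8 arrays limit the precision. The p-values set the difference between the sexes against the spread among rats of the same sex, moderated across probes. With 1 slice and 1 array for each rat, variation of slices and arrays is part of that spread.

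The members and lists were chosen with earlier results of these data known. Named are all members, every list gene past the adjusted p, list genes needed to place them, and the 3 genes most like Dhrs7l1 and Adh6, except for 2 genes that are not reported here but stay in the counts. The brightest probe led for each gene. Through the accession, 17514 probes were named. Promoters and gene order were taken from RefSeq (GRCr8), which is not the build of the files, and the files' coordinates were not used. Sequences were aligned and searched in Python 3.11.15 with Biopython 1.88, and figures were drawn with matplotlib 3.10.9.

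Alternatives were quantile normalization, the authors' log2 values, normexp background correction (offset 50) alone and with quantile normalization, other filters on dim probes, outlier spots kept, weights for arrays, a robust prior with an intensity trend, the slide row or the replicate number as a block, the probe of the largest difference, and leaving out each array. The slide column as a block was added after seeing the data.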

Additional observations from a re-analysis of the deposited data

Results flagged for a closer look

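In 40 groups of 4 rats, the lowest or highest rat was compared with the others, and 4 groups held a rat whose gap to the nearest other rat was larger, relative to the range of the group, than Dixon's criterion allows. Chance gives about 1 in 20 groups, or 2 of 40. For Rbp4, female 4 had −0.28 (other females 0.61 to 0.71), and male 1 had 1.68 (other males 0.42 to 0.58). For Adh6a, male 2 had −5.36, while the other males had −5.03 to −4.96. For Crabp1, female 4 had −4.83, while the other females had −4.57 to −4.53.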

How the results depend on the processing

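No log2 fold-change of a gene of the set changed its direction in any alternative. Counted with both thresholds, the set held 2 to 4 genes (3 as reported), the lists held 4 to 6 (5 as reported), and all tested probes numbered 283 to 495 (443 as reported). Requiring all 8 arrays above background dropped Stra6l and Ttr, which were then not tested, and no filter added Adh7. The lowest count, 283 probes (274 shared), came from normexp background correction with quantile normalization, and the cause was not tested. With both normexp settings, Dhrs7l1 had 6.05 and 6.11, and Stra6l −1.91 and −1.82, while Ttr had −3.93 and −3.85. Leaving out single rats gave 355 to 495 probes, 3 genes of the set each time, and 4 to 6 list genes.

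With the replicate number as a block (replicate block), 372 probes, 3 genes of the set and 4 list genes were counted. Rdh16 was lost (limma adjusted p = 0.0643), as were Crabp1 (0.0843) and Rarres2 (0.108) by the adjusted p alone. The correlations of same-numbered rats' deviations were 0.125, 0.0427, −0.00794 and 0.117, of which 2 of 4 were above 0.1, and 5 of 8 arrays correlated best with their own number, a hint of shared deviation from the data and not from the labels. The numbers were not taken as pairs, since no label ties them to a shared litter or day and not every correlation was above 0.1. As a block, the slide row gave 434 probes and the slide column 374. The other calls lost were that of Aldh3a1 with the slide row (0.05001), those of Rarres2 with the row (0.0662) and the column (0.0533), those of Aldh3a1 (0.0656), Crabp1 (0.0542) and Rarres2 (0.0819) with no filter, and that of Crabp1 in the authors' log2 values (0.0600) and with normexp and quantile normalization (0.0582). Dim signals limit the sizes for Adh4, Adh7, Adh1-ps1, Stra6l, Ttr, the males of Adh6 and the females of Dhrs7l1.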
